A study of Sus scrofa with 11 samples.

Results

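Genes for the mitochondrial carriers, the protein import machinery and the outer-membrane pores were followed in pig back muscle. They were taken as the rows of the gene table whose Ensembl ID carries a symbol starting with SLC25A, TIMM, TOMM or VDAC, which gave 50 of 25322 rows. Of these, 42 reached at least 1 CPM (counts scaled to the total of the pig's library) in at least 4 of the 11 pigs and are the genes described here: 25 metabolite carriers, 15 protein import genes and 2 pores. RNA came from the longissimus lumborum of female pigs aged 23 weeks, after slaughter, and was sequenced as 1 estimated count per gene and pig. The 7 pigs called fibre1 had more than 17% type I fibres (slow, oxidative) and less than 70% type IIB fibres (fast, glycolytic) by histology of the same muscle. The 4 pigs called fibre2B had less than 8% type I and more than 70% type IIB fibres. The groups were thus set by cutoffs on fibre counts in untreated animals, and the breed is not given in the labels.

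Carriers of the SLC25 family sit in the inner mitochondrial membrane and exchange metabolites between the cytosol and the matrix, such as ADP for ATP or acylcarnitine for carnitine. Nearly all mitochondrial proteins, these carriers included, are made in the cytosol and enter through the TOM complex of the outer membrane, after which small TIMM chaperones and the TIM22 complex place carriers in the inner membrane and the TIM23 complex passes proteins into the matrix. VDAC pores let metabolites and ions cross the outer membrane. Slow oxidative fibres are known for a high mitochondrial content, so these genes bear on the question whether muscles rich in type I fibres carry more transcripts of the mitochondrial gates.

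Of the 8 rows that stayed below the CPM minimum, 2 were at 0 in every pig (SLC25A31 and SLC25A53), and TOMM20L had at most 1 count. The others were SLC25A23, SLC25A35, SLC25A45, SLC25A47 and SLC25A48. Just outside the minimum lay SLC25A23, which reached 1 CPM in 3 pigs (0.319 to 1.56 CPM), and just inside lay SLC25A24 with 5 pigs (0.0910 to 1.65 CPM) and SLC25A13 with 6 pigs (0.180 to 2.31 CPM). Another 23 symbols of these families, among them SLC25A6, SLC25A11, VDAC2, TIMM9, TIMM10 and TIMM17A, had no row under their name and were not analysed here. The pores are therefore described from VDAC1 and VDAC3 alone.

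Total gene counts ran from 14832736 to 36374829 per pig. The muscle markers ACTA1, NEB, DES, TNNT1 and TNNI1, the 5 of 10 listed ones with a row, summed to between 79170 and 165700 CPM in fibre1 and between 57580 and 90420 CPM in fibre2B. ACTA1 made up most of this sum. It had 149700 and 140700 CPM in fibre1 pigs 5 and 6, 68710 to 79310 CPM in the other fibre1 pigs and 50260 to 77610 CPM in fibre2B. The slow-fibre troponin TNNI1 had 5998 CPM in fibre1 pig 1 and 1598 to 1944 CPM in the other fibre1 pigs. In fibre2B pigs 10, 11, 14 and 16 it had 1717, 789, 391 and 1383 CPM. TNNT1 had 8674 CPM in fibre1 pig 1 and 2623 to 3408 CPM in the others. The same fibre2B pigs had 2688, 1374, 748.5 and 2218 CPM. For both, fibre2B pig 10 lay within the fibre1 range. All 5 markers had positive log2 fold changes, and 0 passed an adjusted p of 0.05 with edgeR. The 2 adipocyte markers with a row stayed at or below 6.43 CPM in every pig. Fibroblast markers (5 of 6 with a row) summed to 472 to 976 CPM in fibre1 and 743 to 1437 CPM in fibre2B. All 4 tested had lower values in fibre1. Of these, 2 (DCN and LUM) passed an adjusted p of 0.05 with edgeR, as did 9.01% of all genes tested. Blood markers (2 of 2) summed to 137 to 467 CPM in fibre1 and 423 to 955 CPM in fibre2B. HBB and ALAS2 both had lower values in fibre1, and HBB alone passed the same threshold. Endothelial markers (3 of 5) summed to 57.8 to 121 CPM in fibre1 and 60.9 to 104 CPM in fibre2B. Their log2 fold changes were 0.78 for TIE1 (edgeR adjusted p = 0.058), 0.29 for KDR and 0.083 for PECAM1. TIE1 had 5.80 to 12.3 CPM in fibre1 and 3.75 to 5.23 CPM in fibre2B. Its groups did not overlap, as for 7.55% of all genes tested. Smooth muscle and pericyte markers (4 of 5) summed to 44.6 to 91.3 CPM in fibre1 and 44.2 to 68.9 CPM in fibre2B. Of these, KCNJ8 was lower in fibre1 (log2 fold change -0.78, edgeR adjusted p = 0.038). MYH11 (0.75), PDGFRB (0.43) and ACTA2 (0.054) had positive values and did not pass an adjusted p of 0.05. Immune markers (4 of 5) summed to 4.10 to 13.1 CPM in fibre1 and 9.33 to 20.1 CPM in fibre2B. The 10 most abundant nuclear genes took 29.5% to 45.2% of the counts in fibre1, with pigs 5 and 6 highest, and 31.8% to 36.1% in fibre2B. The part of these differences in the results below was not tested. In whole muscle, fewer fibres of a type and less RNA per fibre cannot be told apart.

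Few of these genes differed between fibre1 and fibre2B. By edgeR's quasi-likelihood test, with Benjamini-Hochberg adjustment over all genes tested, 3 of the 42 passed an adjusted p of 0.05: TOMM40 and TIMM44, parts of the outer and inner import machinery, were higher in fibre1, and SLC25A17, a carrier of peroxisomes, was lower. That is 7.14% of the genes, against 9.01% of all 11329 genes tested, so the share called was near the background. Split by direction, 2 of 42 were called higher where 4.38% of all genes were, and 1 of 42 was called lower where 4.63% were. At an unadjusted p under 0.05 there were 11 of 42 (26.2%), against 28.9% of all genes. How many genes of the whole table passed without fibre2B pig 14 depended on the tool. With edgeR 0 did, where 2436 had an unadjusted p under 0.05 (7 of the 42), while 776 passed with DESeq2, 3 with limma-voom and 1095 with limma-voom and quality weights. Without that pig, DESeq2 called TIMM44 (adjusted p = 0.042), and limma-voom with quality weights called TIMM44 (0.041), TOMM40 (0.047) and SLC25A17 (0.036). The median size of the log2 fold change was 0.24 over the 42 genes and 0.32 over all genes.

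The signs of the 42 values are given as counts, with no test. The log2 fold change (fibre1 minus fibre2B throughout) was positive in 27 of 42 genes (64.3%), against 50.7% of all genes, but in 17 of 42 when no scaling factors were used, a setting that moved the median of all genes to -0.19. The median over the 42 genes was 0.11 with TMM scaling (0.0073 over all genes) and -0.0562 with no scaling. By class, the medians were 0.0902 for carriers, 0.18 for import and 0.22 for pores with TMM scaling, and -0.10 for carriers, -0.0346 for import and 0.0312 for pores with no scaling. Without scaling factors, 53 of 157 called genes of the whole table were higher in fibre1, where the TMM fit had 496 higher and 525 lower.

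**Figure D1:**
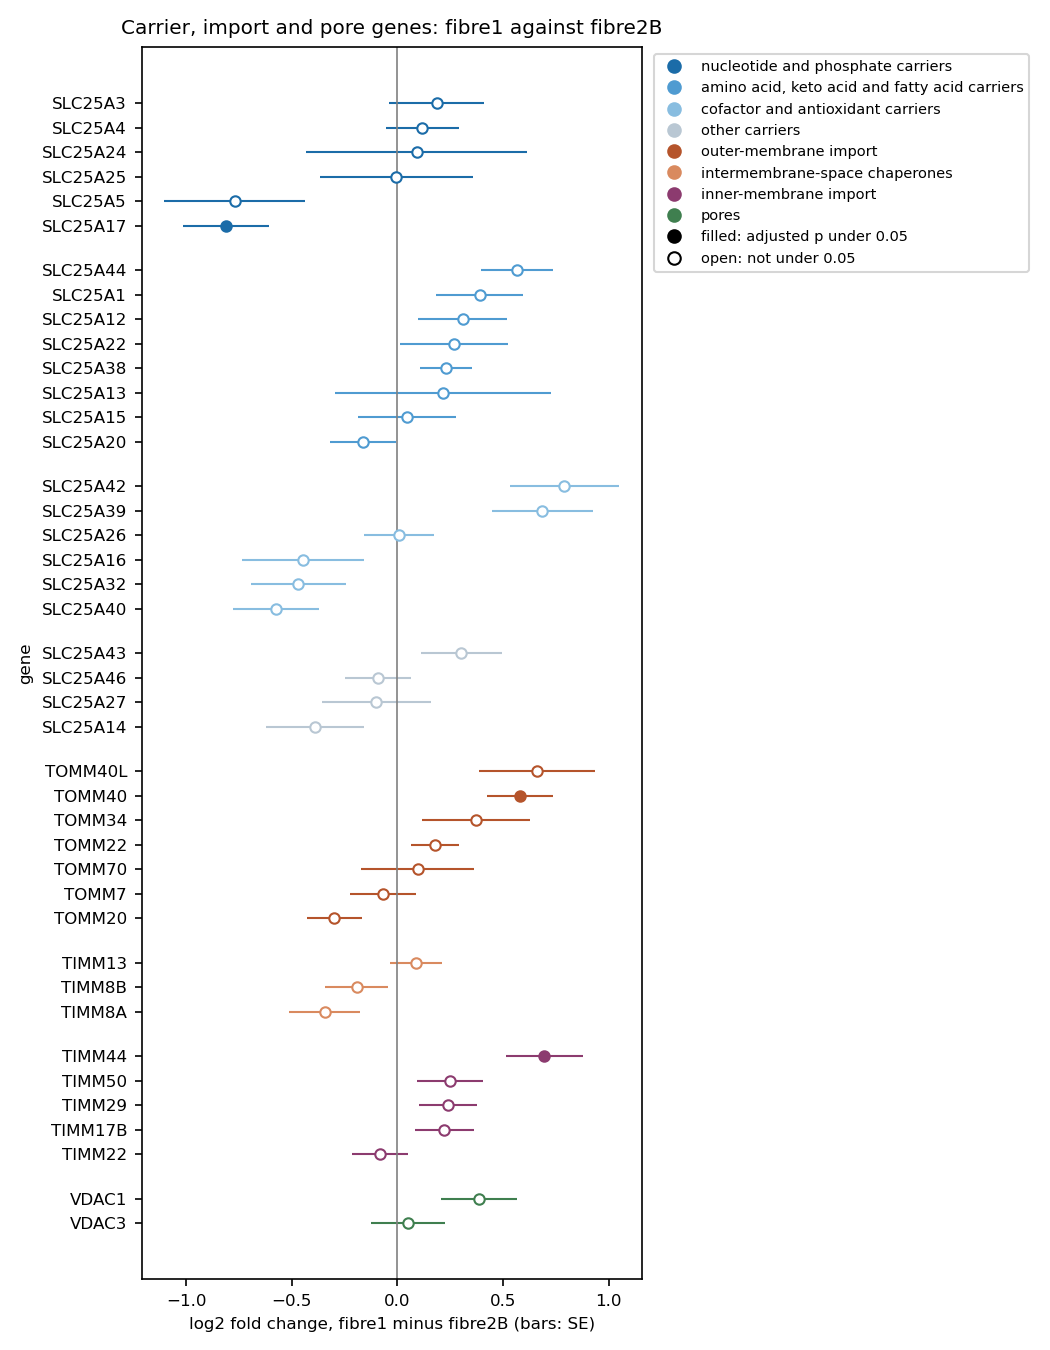
Log2 fold change (x axis, fibre1 minus fibre2B, TMM scaling) of 41 of the 42 genes (y axis), grouped by role; points are edgeR estimates, bars are standard errors, and filled points passed an adjusted p of 0.05. The 3 filled points are TOMM40 at 0.58, TIMM44 at 0.70 and SLC25A17 at -0.81.

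TOMM40 encodes the channel of the TOM complex, the entry gate of the outer membrane. It had 17.7, 23.6 and 27.4 CPM (lowest, median and highest of the 7 pigs) in fibre1, against 17.0, 15.4, 13.2 and 15.2 CPM in fibre2B pigs 10, 11, 14 and 16. All 7 fibre1 pigs lay above the highest fibre2B pig, which made TOMM40 the 1 gene of 42 whose groups did not overlap (2.38%, against 7.55% of all genes tested). In direction, 1 of 42 lay wholly above fibre2B, where 3.4% of all genes did, and 0 of 42 lay wholly below, where 4.15% did. Its log2 fold change was 0.58 ± 0.16 (SE; edgeR adjusted p = 0.039). When single pigs were left out, adjusted p ran from 0.0635 to 0.125 for fibre1 pigs 1, 2, 5 and 6 and for each of the 4 fibre2B pigs, while the log2 fold change stayed between 0.53 and 0.64. It also missed the threshold with no filter on low counts (0.053), with a term for the top 10 nuclear genes in the model (0.48, adjusted p = 0.071), without fibre1 pigs 5 and 6 together (0.46, adjusted p = 0.109) and with no scaling factors (0.36, adjusted p = 0.148).

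The receptors of the same complex gave other values. TOMM20, a receptor for proteins with a targeting presequence, had 53.9, 62.7 and 73.9 CPM (lowest, median, highest) in fibre1, against 88.7, 69.8, 82.8 and 70.0 CPM in fibre2B pigs 10, 11, 14 and 16, so 5 fibre1 pigs lay below every fibre2B pig. Its log2 fold change was -0.30 ± 0.13 (edgeR adjusted p = 0.144). The central receptor TOMM22 had 104, 122 and 136 CPM in fibre1 and 103 to 110 CPM in fibre2B, with 6 of 7 fibre1 pigs above the fibre2B range, at 0.18 ± 0.11 (adjusted p = 0.324). With no scaling factors TOMM22 had -0.0346. TOMM70, the receptor that takes up carriers, was counted shallowly, with 2.08 to 4.81 CPM in fibre1 and 1.99 to 3.85 CPM in fibre2B. Its groups overlapped almost wholly, at 0.0951 ± 0.27 (adjusted p = 0.840; -0.0418 without fibre2B pig 14, -0.0493 without fibre1 pig 12 and -0.0424 with no scaling factors).

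The remaining outer-membrane import genes did not pass either. TOMM40L, a close relative of the channel, had 15.6, 18.6 and 38.1 CPM in fibre1, against 18.3, 7.37, 12.03 and 15.9 CPM in fibre2B pigs 10, 11, 14 and 16. Its high value came from fibre1 pig 1, and the groups overlapped, with 0.66 ± 0.27 (edgeR adjusted p = 0.131; 0.46 without fibre1 pig 1). TOMM7, a small subunit that shapes the complex, had 119 to 208 CPM in fibre1 and 157 to 182 CPM in fibre2B (-0.0670 ± 0.16, adjusted p = 0.807). TOMM34, a cytosolic co-chaperone of import, had 5.19 to 12.02 CPM in fibre1 and 4.40 to 7.78 CPM in fibre2B (0.37 ± 0.26, adjusted p = 0.350).

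**Figure D2:**
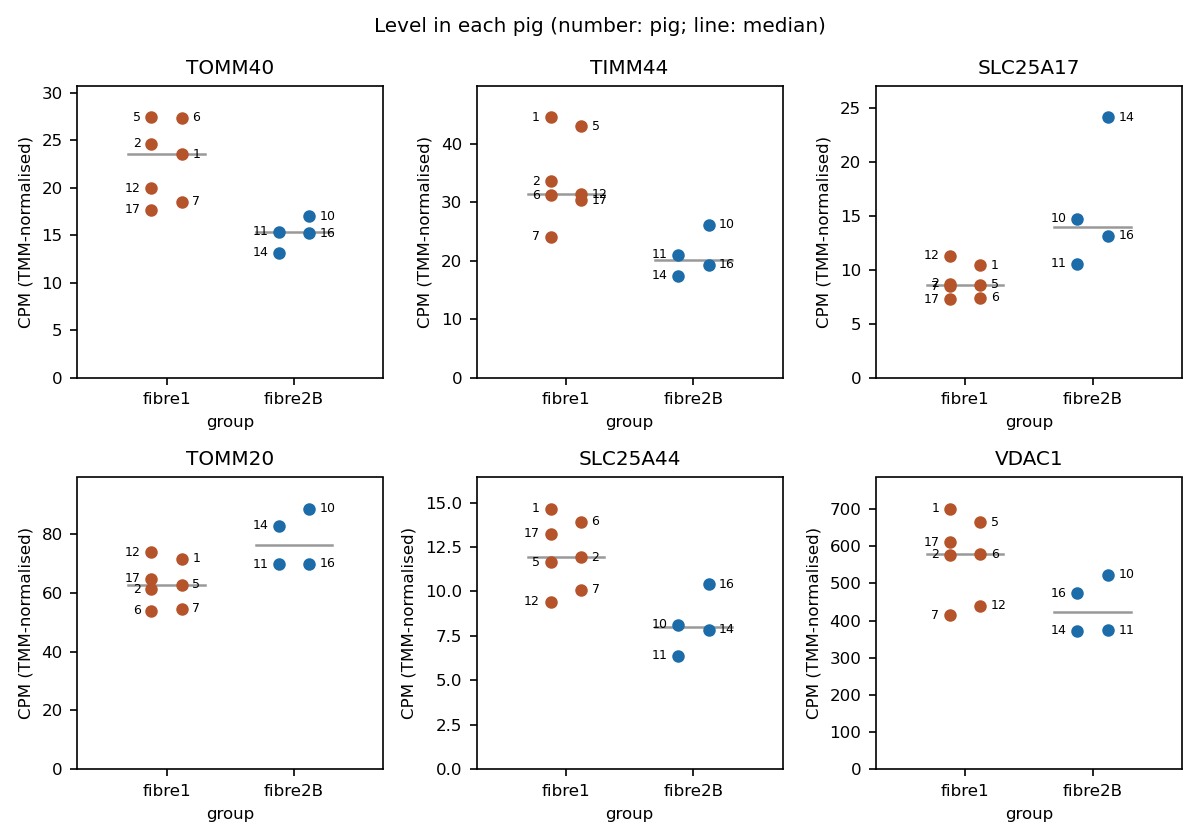
TMM-normalised CPM (y axis, from 0) of 6 genes in each pig, fibre1 on the left and fibre2B on the right; numbers are pigs and grey lines medians. TOMM40 separates the groups (17.7 CPM or more in fibre1 and at most 17.0 CPM in fibre2B), while the other 5 overlap, with SLC25A17 highest in fibre2B pig 14 at 24.1 CPM.

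In the space between the membranes, the small chaperones TIMM8A, TIMM8B and TIMM13 escort some imported proteins to the inner membrane. The small chaperones TIMM9 and TIMM10 had no row under their name. None of the 3 with a row passed. TIMM8A had 16.7, 19.0 and 23.5 CPM in fibre1, against 24.5, 15.8, 30.1 and 26.9 CPM in fibre2B pigs 10, 11, 14 and 16 (-0.35 ± 0.17, edgeR adjusted p = 0.190). Only fibre2B pig 11 lay below the fibre1 pigs, and the other fibre2B pigs lay above them. TIMM8B had 238, 264 and 389 CPM in fibre1 and 309 to 347 CPM in fibre2B, with 5 fibre1 pigs below every fibre2B pig (-0.19 ± 0.15, adjusted p = 0.413). TIMM13, the partner of the TIMM8 proteins, had 59.5 to 86.8 CPM in fibre1 and 60.7 to 70.5 CPM in fibre2B (0.0884 ± 0.12, adjusted p = 0.662).

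At the inner membrane, TIMM44 was the gene called. TIMM44 ties the matrix Hsp70 motor to the TIM23 channel, so that proteins are pulled inward. It had 24.1, 31.4 and 44.6 CPM in fibre1, against 26.2, 21.1, 17.4 and 19.3 CPM in fibre2B pigs 10, 11, 14 and 16. All fibre1 pigs but pig 7, the lowest, lay above the fibre2B range. The log2 fold change was 0.70 ± 0.18 (edgeR adjusted p = 0.035), and it missed the threshold when fibre1 pigs 1, 2, 5 or 6 or the fibre2B pigs 11, 14 or 16 were left out singly (0.0559 to 0.112). The same held with a term for the top 10 nuclear genes in the model (0.060), without fibre1 pigs 5 and 6 together (0.089) and with no scaling factors (0.49, adjusted p = 0.113).

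Other subunits of the inner-membrane machinery did not pass. TIMM50, the receptor of TIM23, had 28.8, 37.8 and 50.3 CPM in fibre1, against 31.7, 33.6, 32.8 and 31.8 CPM in fibre2B pigs 10, 11, 14 and 16 (0.25 ± 0.16, edgeR adjusted p = 0.313). The fibre2B pigs were close together and the fibre1 pigs lay on both sides of them. TIMM17B, which forms part of the TIM23 channel, had 59.9 to 92.3 CPM in fibre1 and 57.5 to 66.9 CPM in fibre2B (0.22 ± 0.14, adjusted p = 0.313). For the carrier route, TIMM22, the core of the TIM22 complex, had 15.1 to 23.1 CPM in fibre1 and 18.4 to 21.0 CPM in fibre2B (-0.0845 ± 0.13, adjusted p = 0.705). Its partner TIMM29 had 6.22 to 7.82 CPM in fibre1 and 5.33 to 6.93 CPM in fibre2B (0.24 ± 0.14, adjusted p = 0.265).

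Carriers were the largest class, and 1 of 25 was called (4.0%, against 9.01% of all genes). SLC25A17 differs from its family in its place: it is a carrier of the peroxisome membrane, for cofactors such as coenzyme A, FAD and NAD. It had 7.25, 8.62 and 11.3 CPM in fibre1, against 14.7, 10.5, 24.1 and 13.1 CPM in fibre2B pigs 10, 11, 14 and 16. Of the fibre1 pigs 6 lay below every fibre2B pig, and pig 12 lay between fibre2B pigs 11 and 16. The log2 fold change was -0.81 ± 0.21 (edgeR adjusted p = 0.032). Without fibre2B pig 14 it was -0.52 with edgeR (adjusted p = 0.127) and -0.57 with limma-voom and quality weights (0.036), and with edgeR it also missed the threshold when fibre1 pigs 2, 5 or 6 or the fibre2B pigs 10 or 16 were left out singly (0.0565 to 0.0634). Other settings that ended the call were no scaling factors (-1.01, adjusted p = 0.062), a term for the top 10 nuclear genes in the model (0.070) and leaving out fibre1 pigs 5 and 6 together (0.104).

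The carriers of ATP and phosphate, which feed and drain the ATP synthase, did not pass. SLC25A4, the ADP/ATP translocase of heart and muscle, had 1318, 1510 and 1827 CPM in fibre1, against 1643, 1481, 949 and 1558 CPM in fibre2B pigs 10, 11, 14 and 16. Apart from fibre2B pig 14, the fibre2B pigs lay inside the fibre1 range (0.12 ± 0.17, edgeR adjusted p = 0.683; -0.0219 without fibre2B pig 14 and -0.0699 with no scaling factors). The phosphate carrier gene SLC25A3 had 471, 629 and 865 CPM in fibre1, against 866, 485, 378 and 593 CPM in fibre2B pigs 10, 11, 14 and 16. These ranges overlapped almost wholly, with 0.19 ± 0.22 (adjusted p = 0.609; 0.0362 without fibre2B pig 14, 0.44 without fibre2B pig 10 and -0.0122 with no scaling factors).

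SLC25A5, the ADP/ATP translocase best known from dividing cells, had 1.85, 4.74 and 7.69 CPM in fibre1, against 10.4, 6.76, 9.82 and 7.19 CPM in fibre2B pigs 10, 11, 14 and 16. Its 4 lowest fibre1 pigs lay below every fibre2B pig, and pigs 5 and 6 were lowest. The log2 fold change was -0.77 ± 0.33 (edgeR adjusted p = 0.146), and -0.48 without fibre1 pigs 5 and 6. SLC25A4, SLC25A5 and SLC25A6 encode very similar proteins, so how the authors' counting shared reads among them is uncertain. The ATP-Mg/phosphate carriers, which respond to calcium, had 67.9 to 264 CPM in fibre1 and 58.1 to 174 CPM in fibre2B for SLC25A25 (-0.0061 ± 0.36, adjusted p = 0.993; -0.26 to 0.15 when single pigs were left out). SLC25A24 had 0.127 to 1.54 CPM in fibre1 and 0.313 to 1.15 CPM in fibre2B (0.0902 ± 0.53, adjusted p = 0.928), at 2 to 60 counts per pig.

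Among the 8 carriers of amino acids, keto acids and fatty acids, 0 passed with edgeR (9.01% of all genes did), and 1 had an unadjusted p under 0.05 (28.9% of all genes did). That gene was SLC25A44, which brings branched-chain amino acids into the matrix. It had 9.42, 11.9 and 14.7 CPM in fibre1, against 8.12, 6.37, 7.83 and 10.4 CPM in fibre2B pigs 10, 11, 14 and 16. Only fibre2B pig 16 reached into the fibre1 range (0.57 ± 0.17, edgeR adjusted p = 0.053). It passed with DESeq2 (0.020), with limma-voom quality weights (0.049) and without fibre1 pig 7 (0.046) or pig 12 (0.032).

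The aspartate/glutamate carriers of the malate-aspartate shuttle, which moves reducing equivalents into mitochondria, were measured at different depths. SLC25A12 had 59.7, 71.4 and 118 CPM in fibre1, against 86.2, 47.6, 46.3 and 66.9 CPM in fibre2B pigs 10, 11, 14 and 16 (0.31 ± 0.21, edgeR adjusted p = 0.348; 0.17 without fibre1 pig 1, 0.20 without fibre2B pig 14 and 0.51 without fibre2B pig 10). SLC25A13 had 0.231 to 2.25 CPM in fibre1 and 0.825 to 1.08 CPM in fibre2B (0.22 ± 0.51, adjusted p = 0.809). Fibre1 pigs lay on both sides of the narrow fibre2B range, and without fibre1 pig 1 the value was -0.0648. SLC25A20, the carnitine/acylcarnitine carrier that admits long-chain fatty acids, had 30.4, 35.0 and 40.0 CPM in fibre1, against 31.6, 54.8, 33.8 and 36.2 CPM in fibre2B pigs 10, 11, 14 and 16. The one high value was fibre2B pig 11, and the log2 fold change was -0.16 ± 0.16 (adjusted p = 0.512; 0.0496 without fibre2B pig 11).

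The citrate carrier gene SLC25A1 had 16.4, 18.6 and 25.5 CPM in fibre1, against 17.9, 15.0, 7.78 and 18.2 CPM in fibre2B pigs 10, 11, 14 and 16. Fibre2B pig 14 was far below the rest (0.39 ± 0.21, edgeR adjusted p = 0.230; 0.19 without fibre2B pig 14). The glycine carrier SLC25A38, needed for haem synthesis, had 11.1 to 14.5 CPM in fibre1 and 9.32 to 11.7 CPM in fibre2B, with 6 of 7 fibre1 pigs above the fibre2B range (0.23 ± 0.12, adjusted p = 0.234). The glutamate carrier SLC25A22 had 0.27 ± 0.26 and the ornithine carrier SLC25A15, of the urea cycle, had 0.0443 ± 0.23 (adjusted p = 0.514 and 0.919).

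Carriers of cofactors and antioxidants went both ways and 0 of 7 passed with edgeR (9.01% of all genes did), while 3 of 7 had an unadjusted p under 0.05 (28.9% of all genes did). SLC25A42, a carrier of coenzyme A, had 9.32, 12.9 and 22.8 CPM in fibre1, against 5.82, 11.96, 5.73 and 9.38 CPM in fibre2B pigs 10, 11, 14 and 16 (0.79 ± 0.26, edgeR adjusted p = 0.068). Of the fibre1 pigs 6 lay above every fibre2B pig. It passed with DESeq2 (0.024), with quality weights (0.036) and without fibre1 pig 12 (0.039) or fibre2B pig 11 (0.042).

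SLC25A39 and SLC25A40 are related carriers that bring glutathione, the main small antioxidant of cells, into mitochondria, and their signs differed. SLC25A39 had 30.1, 44.3 and 77.5 CPM in fibre1, against 22.0, 38.3, 31.0 and 28.7 CPM in fibre2B pigs 10, 11, 14 and 16 (0.69 ± 0.24, edgeR adjusted p = 0.082). SLC25A40 had 3.17, 4.34 and 6.84 CPM in fibre1, against 7.93, 7.20, 5.79 and 7.40 CPM in fibre2B pigs 10, 11, 14 and 16 (-0.57 ± 0.20, adjusted p = 0.086). In both, 5 of 7 fibre1 pigs lay outside the fibre2B range, and the values without fibre1 pigs 5 and 6 were 0.42 for SLC25A39 and -0.42 for SLC25A40. Both were chosen for this description after their values were seen. SLC25A39 passed with DESeq2 (0.041). With quality weights SLC25A39 (0.030) and SLC25A40 (0.029) passed, as they did with 1 surrogate variable (0.035 for SLC25A39 and 0.024 for SLC25A40).

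Further cofactor carriers were the S-adenosylmethionine carrier SLC25A26 (0.0061 ± 0.17), SLC25A16 (-0.45 ± 0.29) and the folate and FAD carrier SLC25A32 (-0.47 ± 0.23), with edgeR adjusted p from 0.186 to 0.985. The last had 1.42 to 2.47 CPM in fibre1 and 2.04 to 3.63 CPM in fibre2B. Carriers without a firmly assigned substrate here did not pass either: SLC25A43 had 0.30 ± 0.19, and SLC25A14 and SLC25A27, relatives of the uncoupling proteins, had -0.39 ± 0.23 and -0.10 ± 0.26. SLC25A46, an outer-membrane member of the family that acts in mitochondrial fusion and fission, had 26.9 to 42.8 CPM in fibre1 and 26.8 to 43.1 CPM in fibre2B (-0.0935 ± 0.16, adjusted p = 0.723).

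**Figure D3:**
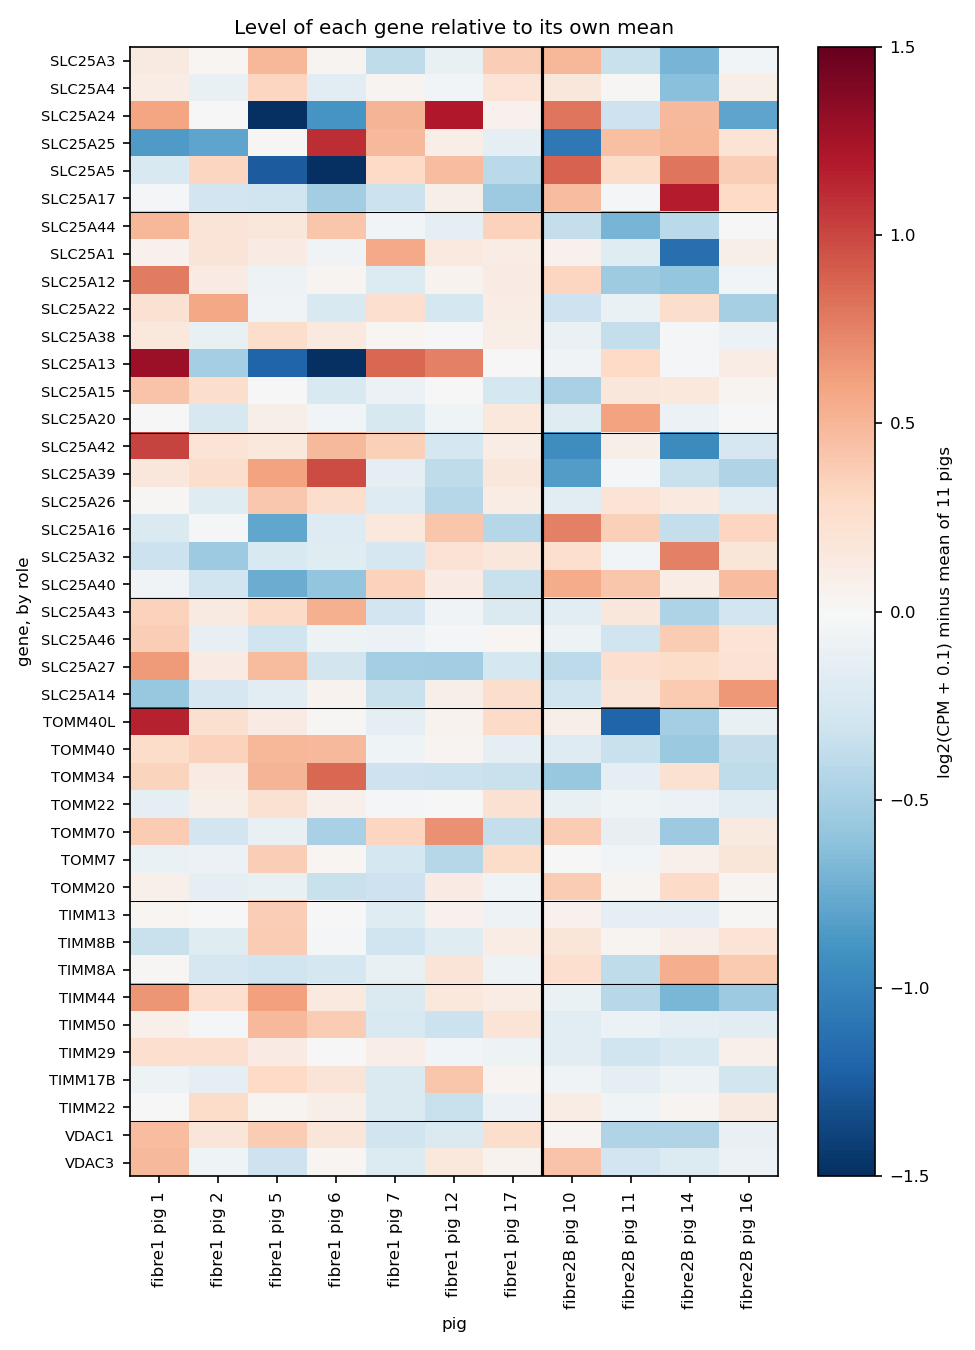
Log2 of CPM plus 0.1, minus the mean over the 11 pigs (colour, cut at 1.5 in either direction), for 41 of the 42 genes (rows, by role in the order of the fold-change plot) and the pigs (columns, fibre1 left of the line). Fibre1 pigs 5 and 6 are low in SLC25A5 (2.28 and 1.85 CPM) and SLC25A13, and fibre2B pig 14 is high in SLC25A17 and low in SLC25A1.

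Of the pores, VDAC1, the main outer-membrane channel for ATP and a docking site of hexokinase, had 415, 579 and 701 CPM in fibre1, against 524, 374, 372 and 473 CPM in fibre2B pigs 10, 11, 14 and 16. In 5 fibre1 pigs it was above the highest fibre2B pig, and fibre1 pigs 7 and 12 lay within the fibre2B range. Its log2 fold change was 0.39 ± 0.18 (edgeR adjusted p = 0.170), and it did not pass under any alternative run. VDAC3 had 81.1, 102 and 141 CPM in fibre1, against 136, 82.5, 87.6 and 94.6 CPM in fibre2B pigs 10, 11, 14 and 16 (0.0498 ± 0.18, adjusted p = 0.875; -0.12 with no scaling factors, -0.0403 without fibre1 pig 1 and 0.23 without fibre2B pig 10). These ranges overlapped almost wholly.

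Summed over each class, the levels overlapped between groups. The 7 fibre1 pigs had a carrier sum of 2638 ± 290 CPM (mean and SD), and the 4 fibre2B pigs one of 2408 ± 458 CPM, with pig 14 lowest at 1776 CPM. The difference of 230 CPM became 35.1 CPM without that pig and 378.5 CPM without fibre2B pig 10. It was 252.6 CPM with RLE factors and -115 CPM with no scaling factors. The import sum was 948 ± 115 CPM for fibre1, against 952 ± 40.7 CPM for fibre2B, a difference of -3.83 CPM. This difference was 4.38 CPM with RLE factors, -28.5 CPM with upper-quartile factors and -150 CPM with none. It ran from -44.86 to 23.35 CPM when single pigs were left out. The pore sum was 673 ± 115 CPM for fibre1, against 536 ± 97.4 CPM for fibre2B, a difference of 137 CPM that was 54.3 CPM with no scaling factors. No test was made on the sums, which are set mainly by the members with the most counts.

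**Figure D4:**
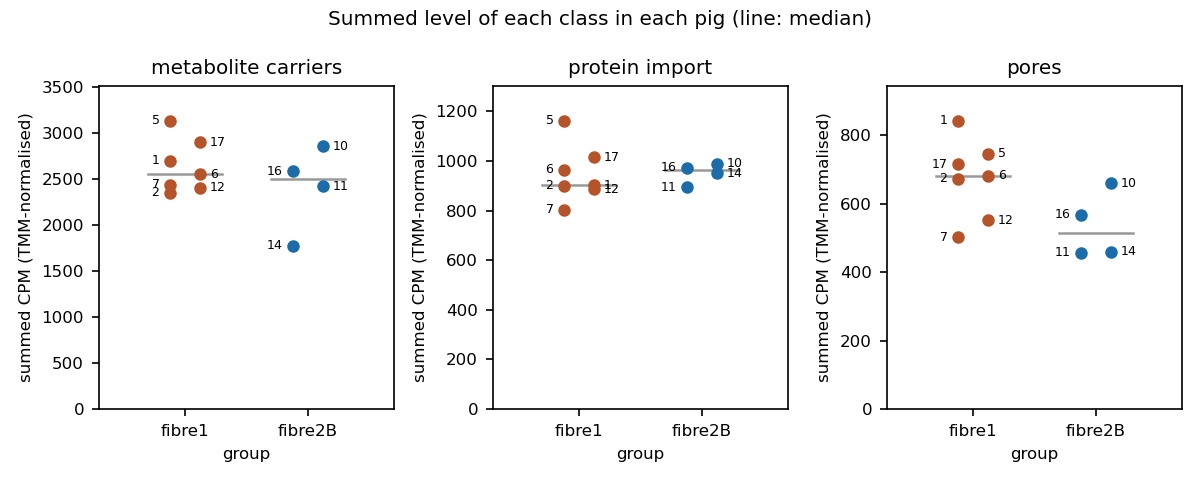
Summed TMM-normalised CPM (y axis, from 0) of the 25 carriers, 15 import genes and 2 pores in each pig, fibre1 left and fibre2B right; numbers are pigs and grey lines medians. The groups overlap in each class, and fibre2B pig 14 is lowest for carriers at 1776 CPM.

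Ratios of the counts of a pair of these genes within a pig need no scaling factor. They were computed for 10 pairs chosen after the values were seen, so they carry no test and describe changes of one gene against another, not their relative levels. TOMM40 to TOMM20, the channel over its receptor, was 0.270, 0.340 and 0.508 (lowest, median, highest) in fibre1, against 0.192, 0.220, 0.159 and 0.217 in fibre2B pigs 10, 11, 14 and 16. It was the 1 ratio of 10 whose groups did not overlap. TOMM40 alone already separated the groups, so this is no separate result, and no share over other gene pairs was computed. TOMM40 to TOMM22 had medians of 0.201 in fibre1 and 0.143 in fibre2B, with 6 of 7 fibre1 pigs above the fibre2B range.

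TIMM8B to TIMM13 had a median of 4.09 in fibre1 and 5.09 in fibre2B, and only fibre1 pig 17, at 5.06, reached the fibre2B range of 4.84 to 5.26. SLC25A39 to SLC25A40 was 5.15, 10.4 and 22.0 in fibre1, against 2.77, 5.33, 5.35 and 3.87 in fibre2B pigs 10, 11, 14 and 16. The highest ratios, 18.8 and 22.0, were those of fibre1 pigs 5 and 6. The same 2 pigs were highest for SLC25A4 to SLC25A5, with 801 and 713, where the other fibre1 pigs had 185 to 405 and the fibre2B pigs 96.7 to 219.

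**Figure D5:**
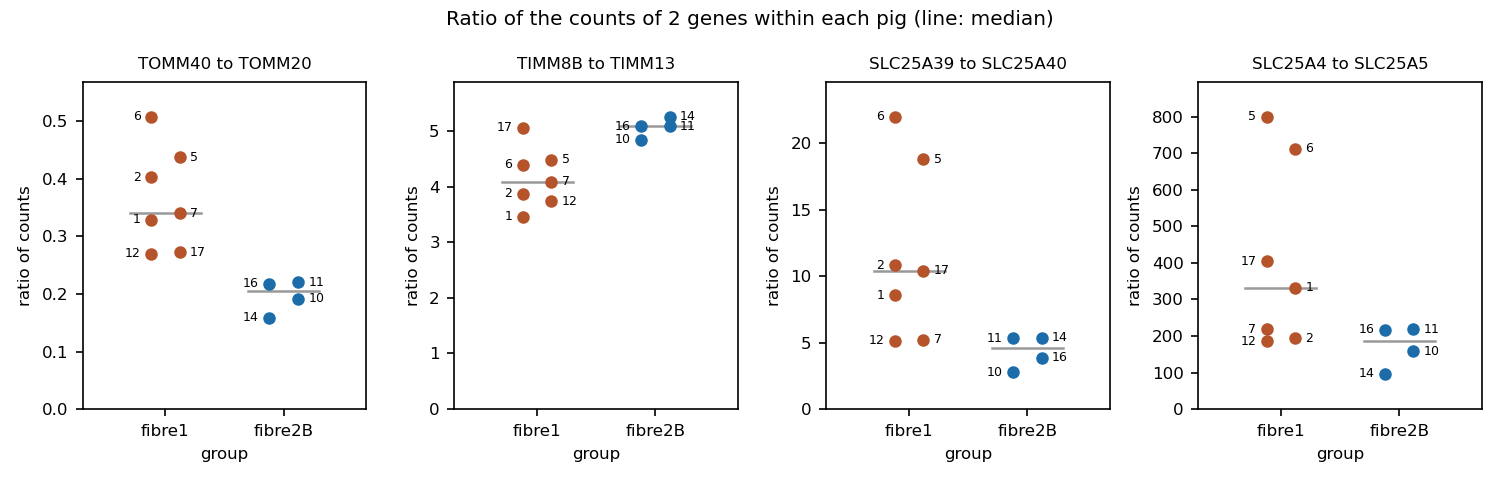
Ratio of the counts of a pair of genes within each pig (y axis, from 0), fibre1 left and fibre2B right, for 4 of the 10 pairs; numbers are pigs and grey lines medians. TOMM40 to TOMM20 is at least 0.270 in fibre1 and at most 0.220 in fibre2B, and fibre1 pigs 5 and 6 stand highest for SLC25A4 to SLC25A5.

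Partner genes that work with these families under other names were read from the same fit. Of 50 listed, 35 were tested and 1 was called (2.86%, against 9.01% of all genes). Positive values numbered 24 (68.6%, against 50.7% of all genes), and the median was 0.17 (0.0073 over all genes). These signs and medians are given with TMM scaling only, and no test was made on them. The called gene was LETM1, an inner-membrane protein of cation and proton exchange, with 6.66, 9.42 and 11.8 CPM in fibre1, against 5.46, 7.80, 4.20 and 4.43 CPM in fibre2B pigs 10, 11, 14 and 16 (0.79 ± 0.20, edgeR adjusted p = 0.033). Of the fibre1 pigs only pig 17 lay below fibre2B pig 11. Leaving out fibre1 pigs 1, 2, 5 or 6 or the fibre2B pigs 10, 14 or 16 singly ended its call (0.0562 to 0.107), as did a term for the top 10 nuclear genes (0.058), leaving out fibre1 pigs 5 and 6 together (0.091) and no scaling factors (0.59, adjusted p = 0.146).

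None of the other partners tested passed with edgeR over all pigs, and some of them are given here. HSPA9, the matrix Hsp70 that TIMM44 binds, had 151, 206 and 234 CPM in fibre1, against 167, 163, 172 and 197 CPM in fibre2B pigs 10, 11, 14 and 16 (0.20 ± 0.16, edgeR adjusted p = 0.413). MIPEP, a peptidase that trims imported proteins in the matrix, had 5.51, 11.0 and 21.6 CPM in fibre1, against 5.59, 4.72, 2.95 and 7.71 CPM in fibre2B pigs 10, 11, 14 and 16 (1.13 ± 0.35, adjusted p = 0.057). CKMT2, the mitochondrial creatine kinase of striated muscle, had 748 to 1189 CPM in fibre1 and 709 to 1214 CPM in fibre2B (-0.0161 ± 0.18, adjusted p = 0.964). UCP3, an uncoupling protein of muscle and a relative of the carriers, had 19.5 to 63.4 CPM in fibre1 and 9.49 to 97.2 CPM in fibre2B (-0.65 ± 0.49, adjusted p = 0.396; -0.22 without fibre2B pig 14).

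Spread within groups differed by class. The median coefficient of variation of the import genes was 17.9% in fibre1 and 10.4% in fibre2B, and that of the carriers 21.5% in fibre1 and 22.5% in fibre2B. Over all genes tested it was 25.2% in fibre1 and 21.6% in fibre2B. No test of these differences was made. Each pig is a separate animal and gave 1 column, so the errors here are between animals.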

How the data were processed

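The authors deposited expected counts per gene (RSEM-type estimates, whole numbers, not normalized), 1 column per pig, joined to pigs by the number in the sample title. TruSeq libraries were made from total RNA per the labels' protocols, and single-end reads came from repeated runs that the table does not separate. Per the submitters' processing notes, the build was Sscrofa10.2 and the tools included STAR, RSEM, DESeq2, edgeR, FastQC and CASAVA 1.8.2, with no roles given. How strand was counted is not given in the sources used here. The isoform table was not used. Rounding changed 0 values, and there were 0 columns of other samples. A table of gene IDs named 11804 of 25322 rows, and unnamed rows held 20.7% of counts. RefSeq names (Sscrofa11.1) served only to list further symbols of these families.

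All genes passing filterByExpr were fitted with edgeR 4.0.16 in R 4.3.3 (TMM factors, quasi-likelihood F test, group term only, Benjamini-Hochberg adjustment). Levels are TMM-normalised CPM; the minimum of 1 CPM in 4 pigs used plain CPM. With TMM-normalised CPM, SLC25A24 would drop out, leaving 41 genes. SE is the size of the log2 fold change over the square root of F. Alternatives were other scaling factors and filters, DESeq2 1.42.0, limma 3.58.1, sva 3.50.0, robust dispersion, a covariate for the counts taken by the 10 most abundant nuclear genes, leaving out abundant genes, and leaving out pigs. The pipeline was tested on simulated data. Named genes were those called, the 3 with the highest mean CPM and the 2 with the smallest p not called in each class, and a set list; 24 resulted, and other members are given more briefly. The genes, lists and alternatives were chosen with earlier results of these data known.
The values of 1 of the 42 genes are not reported here; it stays in the counts, medians and sums.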

Additional observations from a re-analysis of the deposited data

Results flagged for a closer look

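Of 54 sets of values examined, each a group of pigs for 1 named gene or class sum, 3 held a pig far from the others of its group, where chance gives about 1 in 20. The sets are not independent, as the same pigs recur and the class sums hold the named genes. No conclusion is drawn from this rate. SLC25A12 had 118 CPM in fibre1 pig 1, against 59.7 to 75.0 CPM in the other fibre1 pigs. TOMM40L had 38.1 CPM in the same pig, against 15.6 to 20.8 CPM. SLC25A1 had 25.5 CPM in fibre1 pig 7, against 16.4 to 19.5 CPM.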

How the results depend on the processing

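With edgeR and TMM factors, 2 of the 42 genes were called higher in fibre1 and 1 lower, among 1021 genes of the whole table and 1 partner gene. With no scaling factors these counts were 0 higher, 0 lower, 157 genes and 0 partners, and 17 of the 42 values were positive. The covariate for the most abundant genes gave 0 higher, 0 lower, 460 genes and 0 partners, and leaving out fibre1 pigs 5 and 6 gave 0 higher, 0 lower, 28 genes and 0 partners. With no filter 1 was higher. DESeq2 gave 5 higher, 1740 genes and 2 partners, quality weights 5 higher, 2 lower and 1748 genes, and 1 surrogate variable 2 lower and 2 partners. Leaving out single pigs gave 0 to 5 higher, 0 to 2 lower, 0 to 1548 genes and 0 to 3 partners. Without fibre2B pig 14, chosen after seeing the data, DESeq2 gave 1 higher and 0 lower, limma-voom 0 higher, 0 lower, 3 genes and 0 partners, and quality weights 3 higher, 2 lower, 1095 genes and 1 partner. The import sum differed by -150 CPM with no scaling factors (-3.83 CPM with TMM).

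Among the 24 named genes, signs turned only for genes that were not called. With no scaling factors the log2 fold changes were -0.0122 for SLC25A3, -0.0699 for SLC25A4, -0.0346 for TOMM22, -0.0424 for TOMM70 and -0.12 for VDAC3. SLC25A25 had 0.0068 with RLE factors and 0.0069 with DESeq2, SLC25A13 had -0.0627 with limma-voom and -0.16 with quality weights, and TOMM70 had -0.0627 with quality weights. Across single leave-outs the ranges were -0.0648 to 0.38 for SLC25A13, -0.26 to 0.15 for SLC25A25, -0.0403 to 0.23 for VDAC3, -0.0493 to 0.25 for TOMM70, -0.25 to 0.0496 for SLC25A20 and -0.0219 to 0.20 for SLC25A4. Of 312 values of the 24 named genes under other settings, 288 kept direction and side of the threshold, and of 264 leave-out values 224 did. The 3 called genes kept their call less often. SLC25A17 was called in 10 of 13 other settings and 5 of 11 leave-outs. For TIMM44 it was 10 of 13 and 4 of 11, and for TOMM40 9 of 13 and 3 of 11. The causes were not tested. No paired analysis was possible because the groups share no replicate numbers. Low counts limit SLC25A13 and SLC25A24. Counts were also few for SLC25A16 (11 to 67 per pig), SLC25A22 (19 to 50) and SLC25A15 (25 to 67). SLC25A32 had 28 to 96 counts and SLC25A14 had 30 to 92.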
